A study of Mus musculus with 6 samples.

Results

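The 10 genes Spry1, Spry2, Spry4, Spred1, Spred2, Dusp4, Dusp6, Etv4, Etv5 and Ier3 are feedback inhibitors of ERK signalling and ETS-type targets of that pathway. They were chosen by symbol from the count tables, with earlier results of these data known. All 10 were found among 24984 symbols, and all 10 passed the filter on low counts that left 15663 genes for testing. RNA was measured in 6 libraries of mouse E14TG2a embryonic stem cells kept in N2B27, a serum-free medium. Of these, 2 came from cells carrying the D395A mutation of METTL3 (D395A), 2 from METTL3 knockout cells (KO) and 2 from WT cells. METTL3 methylates adenosine in RNA (m6A), and the substitution lies in its catalytic motif. Both mutant lines were made with CRISPR/Cas9, KO by disruption of the endogenous gene and D395A by integration of the changed sequence at its own locus. The number of clones behind each genotype, and of cultures behind each pair of libraries, is not given in the sources used here. All p-values therefore measure only the spread between these libraries, and an effect of METTL3 cannot be told apart from the history of each line. RNA was bulk, so fewer cells expressing a gene and less RNA per cell cannot be told apart either.

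In mouse embryonic stem cells FGF4 signals through FGF receptors, RAS, RAF, MEK and ERK and primes the cells to leave the naive state. Active ERK switches on a small set of genes whose products act back on the cascade. Sprouty and Spred proteins block the steps at the level of RAS and RAF, dual-specificity phosphatases (Dusp) remove the activating phosphates of MAP kinases, and the ETS factors Etv4 and Etv5 carry the response to further genes. Without ERK activity the repressor Capicua sits at several of these genes and keeps them low. Drugs against MEK are known to lower their RNA. Whether the N2B27 medium contained such an inhibitor, or the cytokine LIF, is not given in the sources used here.

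Gene counts totalled between 22859491 (D395A replicate 1) and 40476809 (WT replicate 1) per library, so that 1 count equalled 0.0247 to 0.0437 CPM, a count scaled to a common total. Levels below are CPM scaled by trimmed means (TMM). Mettl3, the targeted gene, stood at 21.1 and 23.4 CPM in D395A, 7.82 and 6.17 CPM in KO, against 28.5 and 31.6 CPM in WT. A part of its exons (18.38%) overlaps Tox4 on the opposite strand. Of the embryonic stem cell markers, among them Pou5f1, Sox2 and Nanog, 10 of 10 passed the filter. Their summed level was 2031 and 2103 CPM in D395A, 4884 and 4860 CPM in KO, against 4157 and 4216 CPM in WT. Chromosomes 8 and 11 stood lower as a whole. The median log2 fold change against WT on chromosome 8 was -0.35 in D395A and -0.48 in KO, and that on chromosome 11 was -0.49 in D395A and -0.41 in KO. Of the 10 genes, 3 lie there (Dusp4 on chromosome 8, Spred2 and Etv4 on chromosome 11).

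In KO most of these genes fell together. Of the 10, 9 were lower than in WT and 0 higher in edgeR's quasi-likelihood test (Benjamini-Hochberg adjusted p below 0.05 over all genes tested), where 66.2% of all genes tested were called, 32.6% lower and 33.6% higher. By DESeq2 the counts were also 9 and 0, and 0 were higher at an unadjusted p under 0.05. The remaining gene, Spred1, was not called in edgeR (adjusted p = 0.68). Falls of at least 2-fold were called for 5 of the 10 (Spry2, Spry4, Dusp6, Etv4 and Ier3), where 10.6% of all genes tested had such a call. The median log2 fold change of the 10 was -1.26, beside 0.01 over all genes tested. In 10 of 10 cases the KO and WT libraries did not overlap, as they did not for 83.9% of all genes tested.

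In D395A the genes held calls in both directions. Against WT, 4 of the 10 were lower (Spry2, Spry4, Etv4 and Ier3; 34.0% of all genes tested were called lower), 2 were higher (Spred1 and Dusp4; 36.3% of all genes tested were called higher) and 4 were not called (Spry1, Spred2, Dusp6 and Etv5). This share of called genes, 6 of 10, lay near that of all genes tested (70.3%). Falls of at least 2-fold were called for 3 of the 10 (12.0% of all genes tested) and rises for 2 (17.0%). The median log2 fold change was -0.03, beside 0.02 over all genes tested. D395A and WT libraries did not overlap for 6 of the 10, against 85.3% of all genes tested. Both comparisons use the same 2 WT libraries.

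The direct comparison of the mutant lines asks where the effects differ. In D395A 8 of the 10 were higher than in KO (26.5% of all genes tested were) and 1, Etv4, was lower (23.8% of all genes tested were), so that 9 of 10 were called beside 50.4% of all genes tested. Ier3 was not called (adjusted p = 0.49). A difference of at least 2-fold was called higher for 5 genes (Spry2, Spry4, Spred1, Dusp4 and Dusp6), where 8.38% of all genes tested had such a call, and lower for Etv4, where 7.56% had. The median log2 difference of the 10 was 0.98, beside 0.04 over all genes tested. Libraries of D395A and KO did not overlap for 9 of the 10, against 74.7% of all genes tested.

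**Figure D1:**
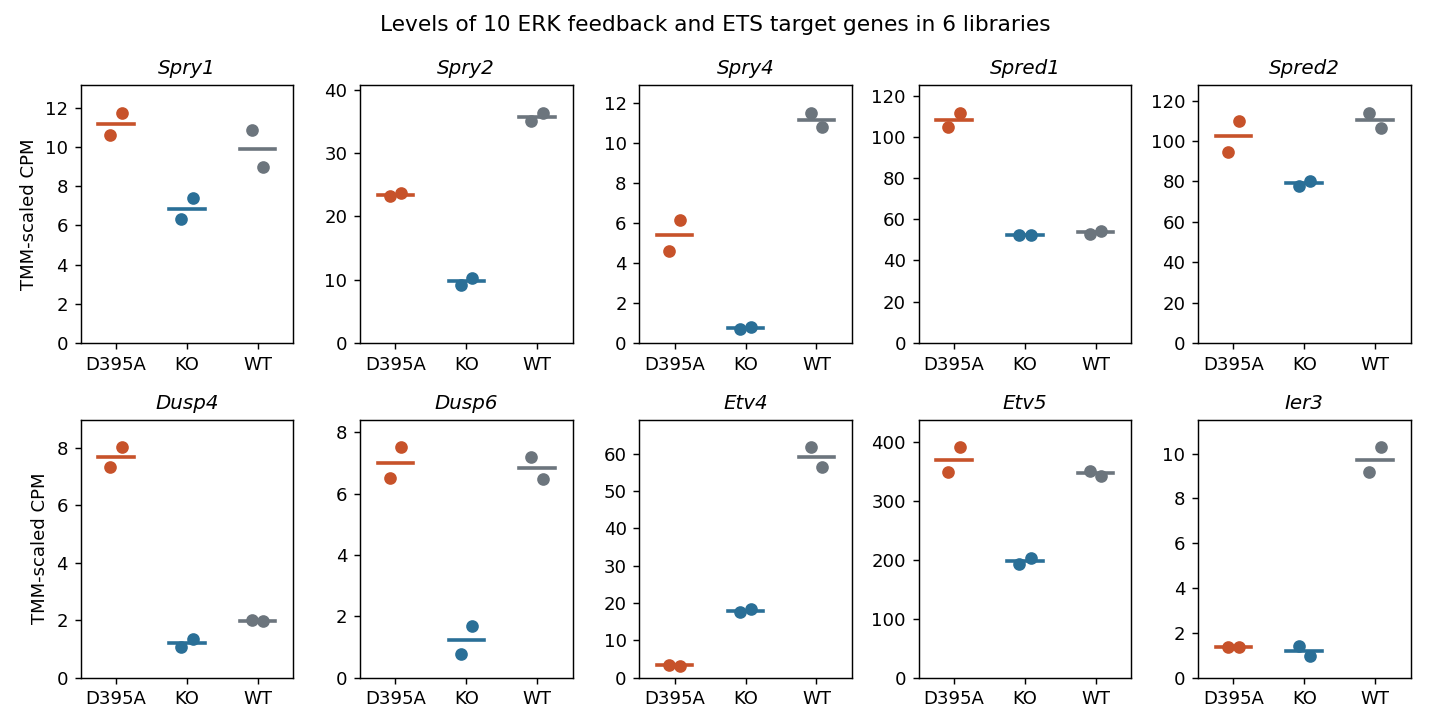
Level of each of the 10 genes (y axis, TMM-scaled CPM, from 0) in D395A, KO and WT (x axis). Each point is 1 library and each line the mean of 2 libraries. KO lies below WT in the panels of 9 called genes, D395A lies far below both for Etv4 (3.45 and 3.16 CPM) and above both for Dusp4 (7.33 and 8.01 CPM) and Spred1 (105 and 112 CPM).

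Spry2, an inhibitor of receptor tyrosine kinase signalling on chromosome 14 (GRCm38, 105891947 to 105896819, minus strand), was the most abundant Sprouty gene. It was measured at 23.2 and 23.7 CPM in D395A, 9.13 and 10.3 CPM in KO, against 35.1 and 36.4 CPM in WT. The 3 groups did not overlap, with KO lowest and D395A between KO and WT. In KO it fell by 1.88 on the log2 scale (SE 0.08, adjusted p = 1.5e-09), and in D395A it fell by 0.61 (SE 0.08, adjusted p = 1.7e-05). The difference of D395A over KO was 1.27 ± 0.09 (SE, adjusted p = 1.2e-07).

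Spry4, a relative of Spry2 with a like role, held the largest fall of the 10 in KO. Its counts were 108 and 222 in D395A, 25 and 27 in KO, against 468 and 391 in WT, which equals 4.60 and 6.16 CPM in D395A, 0.711 and 0.778 CPM in KO, against 11.5 and 10.8 CPM in WT. The KO libraries were close to each other and far below the other groups. Its log2 fold change in KO was -3.90 ± 0.20 (SE, adjusted p = 4.2e-09), a level 14.9-fold lower than in WT. In D395A it was -1.04 ± 0.16 (adjusted p = 6.3e-05). D395A exceeded KO by 2.86 ± 0.21 (adjusted p = 2e-07).

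Spry1, a further Sprouty gene, changed least of the Sprouty genes in both lines. It stood at 10.6 and 11.8 CPM in D395A, 6.34 and 7.38 CPM in KO, against 10.9 and 8.96 CPM in WT, so that D395A and WT overlapped and KO lay below both. In KO the log2 fold change was -0.53 ± 0.13 (adjusted p = 0.0034), a call that ended without WT replicate 1 (-0.39, adjusted p = 0.059). In D395A the value was 0.18 ± 0.13 (adjusted p = 0.24), and D395A exceeded KO by 0.71 ± 0.13 (adjusted p = 0.00077). Exons of Spry1 overlap Gm42922 on the opposite strand over 24.43% of their length, so its counts carry that uncertainty.

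The Spred genes, whose products bring neurofibromin to the plasma membrane, where it switches RAS off, moved little in KO and apart from each other in D395A. Spred1, on chromosome 2, was measured at 105 and 112 CPM in D395A, 52.4 and 52.6 CPM in KO, against 53.0 and 54.3 CPM in WT. The D395A libraries stood well above the other 4, which lay within a narrow range. It rose in D395A by 1.02 ± 0.06 (adjusted p = 1.7e-08), while the KO value was -0.03 ± 0.06. D395A exceeded KO by 1.05 ± 0.06 (adjusted p = 2.9e-08).

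Spred2 stood at 94.8 and 109.9 CPM in D395A, 77.9 and 80.1 CPM in KO, against 114 and 107 CPM in WT. KO was below both other groups, which overlapped. Its log2 fold change in KO was -0.48 ± 0.07 (adjusted p = 9.3e-05), close to the median of chromosome 11, where it lies (-0.41), and -0.07 relative to that median. In D395A it was -0.11 ± 0.07 (adjusted p = 0.22), which is 0.38 relative to the chromosome. Without D395A replicate 2 the D395A value was -0.22 and was called lower (adjusted p = 0.013). The part of the shift of chromosome 11 in these values was not tested.

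The phosphatase genes Dusp4 and Dusp6 were 6.37-fold and 5.77-fold higher in D395A than in KO. Dusp6, on chromosome 10, is a cytosolic phosphatase specific for ERK. It held 153 and 271 counts in D395A, 27 and 58 in KO, against 293 and 235 in WT, equal to 6.52 and 7.51 CPM in D395A, 0.768 and 1.67 CPM in KO, against 7.20 and 6.48 CPM in WT. D395A and WT overlapped, and KO lay far below both with a 2.18-fold gap between its own libraries. In KO the log2 fold change was -2.49 ± 0.26 (adjusted p = 2.4e-06), or -2.03 without KO replicate 1 and -3.15 without KO replicate 2. In D395A it was 0.04 ± 0.22 (adjusted p = 0.87). D395A exceeded KO by 2.53 ± 0.26 (adjusted p = 4.5e-06), or by 2.07 without KO replicate 1 and 3.19 without KO replicate 2.

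Dusp4, a nuclear phosphatase of MAP kinases, was the gene called in opposite directions in the mutant lines. Its counts were 172 and 289 in D395A, 37 and 47 in KO, against 81 and 72 in WT. On the CPM scale these are 7.33 and 8.01 in D395A, 1.05 and 1.35 in KO, against 1.99 and 1.98 in WT, and the 3 groups did not overlap. In D395A it rose by 1.95 ± 0.20 (adjusted p = 2.3e-06), a 3.86-fold higher level. In KO it changed by -0.72 ± 0.23 (adjusted p = 0.013), a call lost without KO replicate 1 (-0.55, adjusted p = 0.082). It lies on chromosome 8, and relative to the median of that chromosome the values were 2.30 in D395A and -0.24 in KO. The part of the chromosome's shift in the KO value was not tested. D395A exceeded KO by 2.67 ± 0.21 (adjusted p = 4.8e-07).

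Etv4 and Etv5, ETS factors of the same subfamily, parted in D395A. Etv4, on chromosome 11, held 81 and 114 counts in D395A, 615 and 642 in KO, against 2511 and 2048 in WT. Its levels were 3.45 and 3.16 CPM in D395A, 17.5 and 18.5 CPM in KO, against 61.7 and 56.4 CPM in WT, with no overlap between any groups. In D395A it fell by 4.17 on the log2 scale (SE 0.10, adjusted p = 7e-12), to a level 18.0-fold lower than in WT. Counted from the lowest log2 fold change, this was rank 206 of 15663 genes. In KO it fell by 1.72 (SE 0.08, adjusted p = 1.4e-09). D395A was below KO, with a log2 difference of -2.45 ± 0.11 (adjusted p = 2.2e-09). Relative to the median of chromosome 11 the fold changes were -3.68 in D395A and -1.30 in KO.

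Etv5, on chromosome 16, was by far the most abundant of the 10, at 349 and 391 CPM in D395A, 192 and 203 CPM in KO, against 352 and 343 CPM in WT. D395A and WT overlapped and KO was lower. In KO its log2 fold change was -0.81 ± 0.07 (adjusted p = 5.7e-07). In D395A it was 0.09 ± 0.07 (adjusted p = 0.26), or 0.17 without D395A replicate 1, when it was called higher (adjusted p = 0.013). D395A exceeded KO by 0.91 ± 0.07 (adjusted p = 4.3e-07).

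Ier3, an early response gene whose product is phosphorylated by ERK, fell to a like level in both lines. It held 32 and 50 counts in D395A, 49 and 34 in KO, against 373 and 373 in WT, which is 1.36 and 1.39 CPM in D395A, 1.39 and 0.980 CPM in KO, against 9.17 and 10.3 CPM in WT. The mutant libraries overlapped each other and lay far below WT. The log2 fold change was -2.82 ± 0.20 in D395A (adjusted p = 7.8e-08) and -3.03 ± 0.20 in KO (adjusted p = 4.5e-08). The difference of D395A over KO was 0.21 ± 0.24 and did not pass the test.

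**Figure D2:**
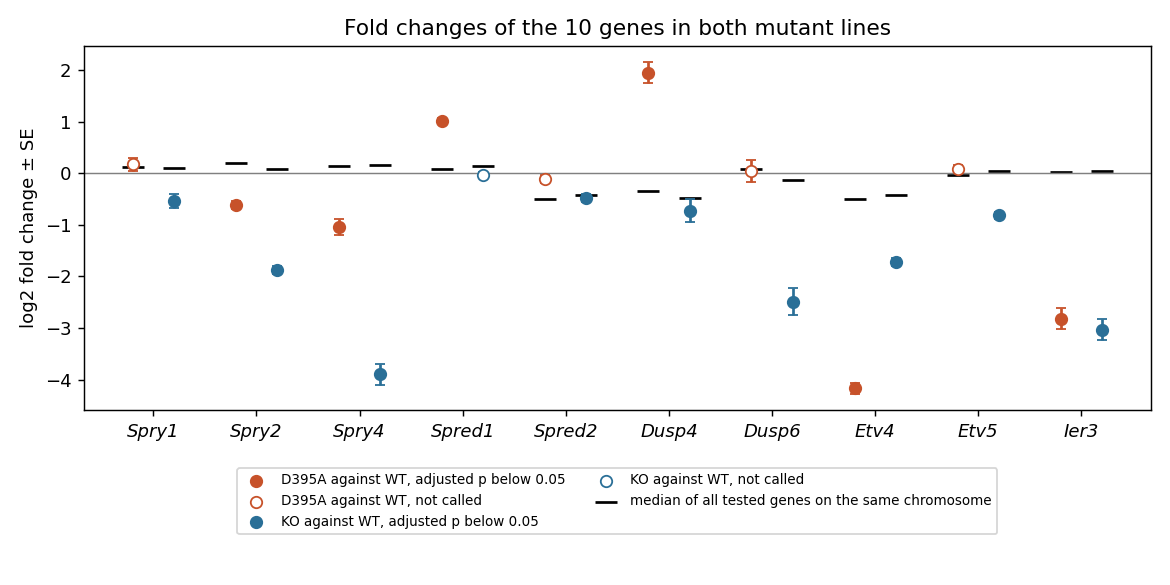
Log2 fold change against WT (y axis, points with bars of 1 SE) of each of the 10 genes (x axis) in D395A (left point of each pair) and KO (right point), with filled points for calls and open points for values not called. Black dashes give the median of all tested genes on the gene's chromosome. For Spred2 the KO value (-0.48) lies close to that dash (-0.41), while Etv4 lies far below it in both lines.

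Set per kilobase of exon (GENCODE M21), the order of the genes changed between the groups. Etv5 led in every group, at 90.3 ± 7.20 CPM per kb in D395A, 48.2 ± 1.85 in KO and 84.7 ± 1.46 in WT (SD, n = 2 libraries each), and Spred2 came next in each. Etv4 took rank 10 of the 10 in D395A (1.06 CPM per kb), rank 4 in KO (5.80) and rank 3 in WT (19.0). At the low end in D395A the libraries of Spry4 overlapped those of Ier3 and those of Etv4, so Spry4 differed from neither beyond their spread. In KO the same held for Dusp4 and Dusp6 (0.439 and 0.389 CPM per kb), and in WT for Spry4 and Dusp6 (2.34 and 2.18 CPM per kb). Spry4 was the last in KO, at 0.157 CPM per kb. The other neighbours in these orders did not overlap.

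Ratios between related genes within a library show the uneven changes. The level of Etv5 per kilobase was 76.6 and 93.6 times that of Etv4 in D395A, 8.32 and 8.31 times in KO, against 4.31 and 4.60 times in WT. Dusp6 over Dusp4 was 0.778 and 0.820 in D395A, 0.638 and 1.08 in KO, against 3.16 and 2.86 in WT. WT libraries stood above both mutant lines in this ratio, and the mutant lines overlapped. Spry2 over Spry4 was 11.5 and 8.77 in D395A, 29.3 and 30.3 in KO, against 6.94 and 7.70 in WT. Spred1 over Spred2 was 0.754 and 0.693 in D395A, 0.458 and 0.447 in KO, against 0.316 and 0.347 in WT. The sum of the 10 genes was 144 and 159.9 CPM per kb in D395A, 85.7 and 90.1 in KO, against 172 and 168 in WT. Etv5 made up 59.2% and 59.6% of it in D395A, 54.7% and 54.9% in KO, and 49.8% and 49.9% in WT.

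**Figure D3:**
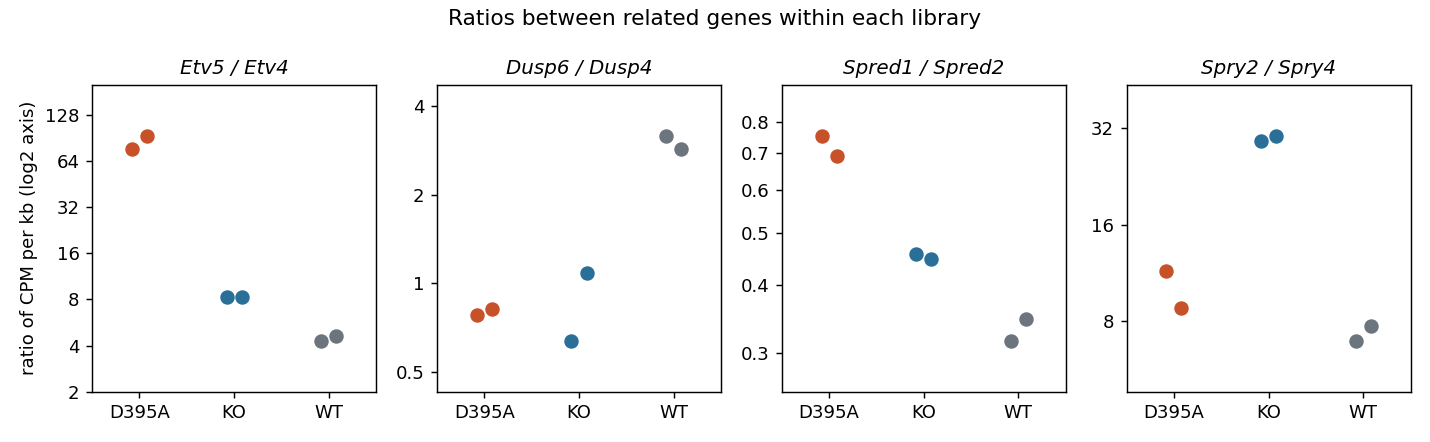
Ratio of the levels per kilobase of exon (y axes, log2 scale) of 4 pairs of related genes in D395A, KO and WT (x axis), each point 1 library. Etv5 over Etv4 is highest in D395A (76.6 and 93.6), and Spry2 over Spry4 is highest in KO (29.3 and 30.3).

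Promoter windows from RefSeq (GRCm38.p6), the 250 bases before the gene's start, were at hand for 7 of the 10 genes (8 windows, since Etv5 has 2 starts). None was at hand for Spry4, Dusp4 and Etv4, so the search does not cover them. The available windows are described here. They were searched on both strands for the Capicua octamer (TGAATGAA, TGAATGGA, TCAATGAA or TCAATGGA), the ETS site CCGGAA, the AP-1 site TGANTCA and the cAMP response element TGACGTCA, which share no full site with each other. The Capicua octamer was found in 2 of the 8 windows, those of Dusp6 and Spry2, and in 3.19% of 32851 windows of all genes. Neither the ETS core (12.0% of all windows), the AP-1 site (6.75%) nor the cAMP response element (1.55%) was found in the 8 windows. A match describes letters only, and no match says only that these letters are absent from this window. Of the genes with a window, Spry1, Spred2, Etv5 and Ier3 were also called lower in KO, and their windows hold no octamer. Shown, with the octamer in capitals, are the windows of Spry2, which fell in both lines, and Dusp6, which fell in KO. That of Ier3, which fell in both lines and holds none of the motifs searched, is shown as well. In this order the windows lie at chr14:105896820-105897069 (minus strand), chr10:99262981-99263230 (plus strand) and chr17:35821463-35821712 (plus strand). They are written 5′ to 3′ along the gene's strand. The octamer reads on the opposite strand in Spry2 and Dusp6, 54 to 47 bases before the start of Spry2 (as TCAATGAA) and 24 to 17 bases before that of Dusp6 (as TCAATGGA).
Spry2: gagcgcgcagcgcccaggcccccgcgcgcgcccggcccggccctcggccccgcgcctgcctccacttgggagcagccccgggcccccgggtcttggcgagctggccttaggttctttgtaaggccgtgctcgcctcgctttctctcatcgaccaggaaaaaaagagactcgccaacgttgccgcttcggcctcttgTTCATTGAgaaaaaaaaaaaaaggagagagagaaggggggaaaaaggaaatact
Dusp6: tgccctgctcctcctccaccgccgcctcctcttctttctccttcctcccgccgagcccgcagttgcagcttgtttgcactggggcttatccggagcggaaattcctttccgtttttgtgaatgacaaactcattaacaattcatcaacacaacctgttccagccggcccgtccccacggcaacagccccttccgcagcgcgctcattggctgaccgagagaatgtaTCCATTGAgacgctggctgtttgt
Ier3: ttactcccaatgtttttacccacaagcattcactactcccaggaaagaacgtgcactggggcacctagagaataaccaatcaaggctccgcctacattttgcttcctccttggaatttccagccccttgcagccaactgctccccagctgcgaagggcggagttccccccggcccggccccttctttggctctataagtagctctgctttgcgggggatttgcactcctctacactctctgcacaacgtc

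The other genes of the pathway are given by list, to be read beside the shares of all genes tested that were called, 36.3% higher and 34.0% lower in D395A and 33.6% higher and 32.6% lower in KO. No list was tested against the 10 genes or against all genes. Of 7 tested FGF ligands and receptors, 1 was higher and 3 lower in D395A, and 3 were higher and 2 lower in KO (median log2 fold change -0.46 in D395A and 0.64 in KO). Fgf4, the ligand that starts ERK signalling in these cells, was at 49.1 ± 3.98 CPM in D395A, 351 ± 6.40 CPM in KO and 226 ± 0.877 CPM in WT. It fell in D395A by 2.20 on the log2 scale (adjusted p = 8e-11) and rose in KO by 0.64 (adjusted p = 2.8e-06). A link between Fgf4 and the levels of the 10 genes was not tested. Fgfr1, the main FGF receptor of these cells, was at 87.5 ± 1.94 CPM in D395A, 146 ± 2.73 CPM in KO and 85.9 ± 1.39 CPM in WT, and rose in KO by 0.77 ± 0.06 (adjusted p = 1.6e-07). Fgfr2, a second receptor, rose to 20.6 ± 0.0108 CPM in D395A (4.22 ± 0.17, adjusted p = 3.8e-10) and to 2.74 ± 0.612 CPM in KO (1.30 ± 0.20, adjusted p = 6.7e-05), against 1.11 ± 0.0341 CPM in WT. Fgfr3 was at 2.02 ± 0.579 CPM in D395A (not called, adjusted p = 0.30) and fell in KO to 0.244 ± 0.184 CPM, against 2.75 ± 0.182 CPM in WT (-3.48 ± 0.47, adjusted p = 3e-05). The ligand gene Fgf15 was at 0.321 ± 0.213 CPM in D395A, 0.543 ± 0.157 CPM in KO and 1.77 ± 0.106 CPM in WT, and was called lower in D395A (-2.39 ± 0.54, adjusted p = 0.0016) and in KO (-1.70 ± 0.51, adjusted p = 0.010). Exons of Fgfr3 and Fgf15 overlap other genes on the opposite strand.

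Adaptors and kinases of the cascade were split in both lines. Among 19 tested, 7 were higher and 10 lower in D395A, and 7 were higher and 9 lower in KO, with medians of -0.19 in D395A and 0.03 in KO. Braf, a RAF kinase, fell to 116 ± 6.87 CPM in D395A (-0.35 ± 0.07, adjusted p = 0.00046) and to 66.5 ± 3.45 CPM in KO (-1.15 ± 0.07, adjusted p = 1.4e-08), against 148 ± 3.12 CPM in WT. Ksr1, a scaffold of RAF, MEK and ERK on chromosome 11, fell in D395A by 1.42 (SE 0.07, adjusted p = 2e-09) and rose in KO by 0.17 ± 0.06 (adjusted p = 0.029). Gab1, an adaptor on chromosome 8, had log2 fold changes of -0.98 ± 0.08 in D395A and -0.80 ± 0.08 in KO. Map2k1, which encodes MEK1, fell in D395A by 0.69 (SE 0.06, adjusted p = 5.8e-07) and in KO by 0.40 (SE 0.06, adjusted p = 8.2e-05).

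Further inhibitors and phosphatases held calls in both directions. Of 7 further tested inhibitors of RAS signalling (Spry3 was listed at 0 in the 6 libraries and not tested), 4 were higher and 0 lower in D395A in edgeR (0 also by DESeq2 and at an unadjusted p under 0.05; median 0.70), and 4 were higher and 1 lower in KO (median 0.38). Erbin, a scaffold that restrains RAF activation, was at 138 ± 2.61 CPM in D395A, 97.2 ± 0.636 CPM in KO and 55.9 ± 3.11 CPM in WT. Spred3 rose in D395A by 1.05 ± 0.16 and in KO by 0.82 ± 0.16, Rasa1, a RAS GTPase activating protein, by 0.70 ± 0.06 in D395A and 0.38 ± 0.06 in KO, and Lztr1, which marks RAS for degradation, by 0.88 ± 0.09 in D395A and 0.45 ± 0.09 in KO. Of 9 other MAP kinase phosphatases, 5 were higher and 2 lower in each line, with medians of 0.52 in D395A and 1.40 in KO. Dusp7, an ERK phosphatase related to Dusp6, rose to 88.5 ± 3.27 CPM in D395A and 63.0 ± 3.10 CPM in KO, against 21.1 ± 0.622 CPM in WT. Dusp16, which acts on JNK and p38, rose to 117 ± 3.79 CPM in D395A and 184 ± 2.74 CPM in KO, against 68.8 ± 3.26 CPM in WT. Dusp1, an early response phosphatase, fell by 1.38 in D395A and by 2.02 in KO, and Dusp9, an ERK phosphatase of embryonic stem cells, fell by 0.83 in D395A and by 0.62 in KO.

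Of 13 other ETS factors tested, 10 were higher and 0 lower in D395A in edgeR (1 lower by DESeq2 and 1 at an unadjusted p under 0.05; median 0.42), and 10 were higher and 1 lower in KO (median 0.59). Elf1 was at 31.3 ± 0.0799 CPM in D395A, 34.4 ± 0.370 CPM in KO and 12.1 ± 0.502 CPM in WT. Ets2, itself an ERK target, was at 34.6 ± 1.22 CPM in D395A, 87.9 ± 3.93 CPM in KO and 37.0 ± 1.32 CPM in WT, and rose in KO by 1.25 ± 0.07 (adjusted p = 5.6e-09). Elk3, a partner of serum response factor, rose by 0.41 ± 0.12 in D395A and 1.42 ± 0.11 in KO. Erf, an ETS repressor that ERK exports from the nucleus, rose by 0.80 ± 0.07 in D395A and 0.46 ± 0.07 in KO, and Ets1 by 2.30 ± 0.28 in D395A and 1.56 ± 0.28 in KO.

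Among 9 kinases downstream of ERK and members of the Capicua complex, 5 were higher and 2 lower in each line (medians 0.63 in D395A and 0.36 in KO). Atxn1l, a partner that stabilises Capicua, was at 106 ± 9.36 CPM in D395A, 91.5 ± 2.00 CPM in KO and 34.7 ± 0.262 CPM in WT. Its relative Atxn1 was at 14.6 ± 1.34 CPM in D395A, 64.1 ± 0.775 CPM in KO and 15.5 ± 0.533 CPM in WT, a rise in KO of 2.05 ± 0.08 (adjusted p = 3.3e-10). Of the kinases, Rps6ka5 rose by 0.73 ± 0.09 in D395A and 1.37 ± 0.09 in KO. Rps6ka3 rose in D395A by 0.71 ± 0.07 and fell in KO by 0.39 (SE 0.07, adjusted p = 0.00028). Mknk2 rose in D395A by 0.73 ± 0.06, and its value in KO was 0.11 ± 0.06 (adjusted p = 0.12). Of 11 further genes that respond to ERK, 4 were higher and 4 lower in D395A, and 4 were higher and 5 lower in KO (medians 0.26 in D395A and -0.48 in KO). Epha4, a receptor for ephrins, fell to 18.2 ± 2.13 CPM in D395A and 46.6 ± 2.81 CPM in KO, against 164 ± 2.696 CPM in WT. Plk2, a kinase of the early response, rose by 1.03 ± 0.08 in D395A and 1.23 ± 0.08 in KO, and Ier2, an early response gene on chromosome 8, fell by 0.54 in D395A and by 0.86 in KO.

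**Figure D4:**
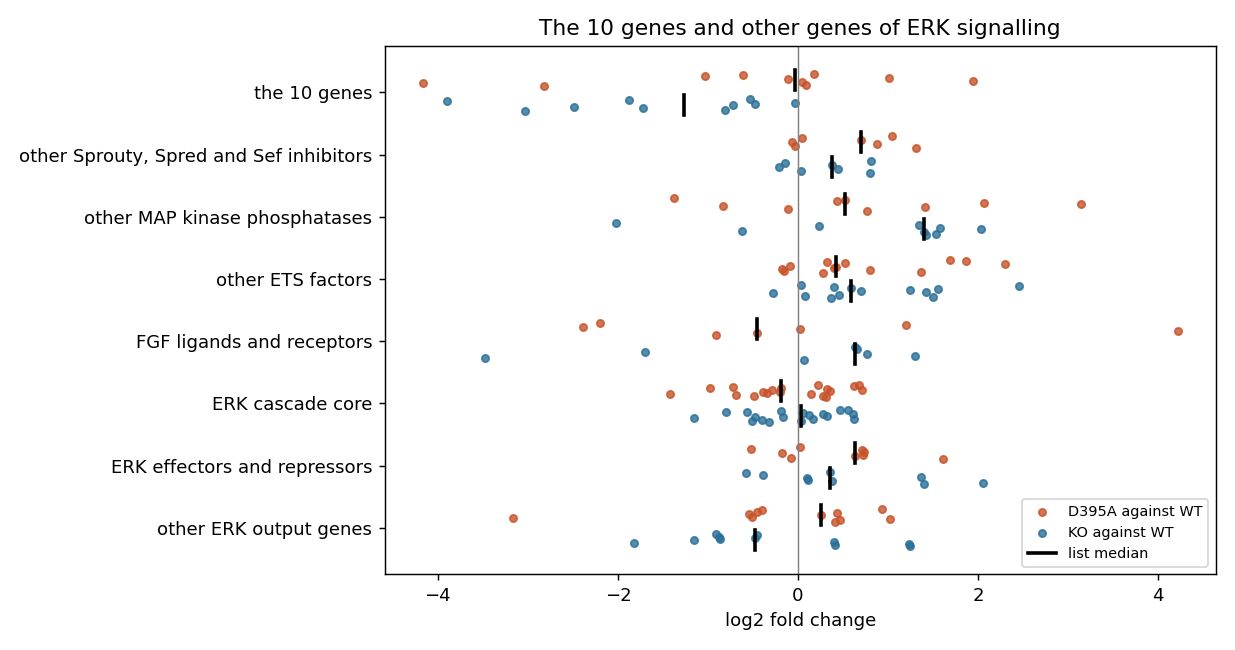
Log2 fold changes against WT (x axis) of the 10 genes and of the other lists of ERK signalling genes (rows), in D395A (upper points of each row) and KO (lower points). Each point is 1 tested gene and each black bar the median of a list. The median of the 10 genes in KO (-1.26) is the lowest of the medians shown. The 10 genes and the lists were chosen with earlier results of these data known, so this order is no test.

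Markers of the cell states that such cultures can hold also moved between the groups. Of the 10 embryonic stem cell markers, 9 were lower and 0 higher in D395A (median -0.94), and 4 were lower and 4 higher in KO (median 0.06). Extraembryonic endoderm markers (6 of 8 tested) summed to 43.1 and 46.4 CPM in D395A, 26.6 and 32.4 CPM in KO, against 14.1 and 13.8 CPM in WT, with 2 higher (Foxa2 and Dab2) and 2 lower (Gata4 and Gata6) in each line and Afp at 0 in D395A. Mean levels of Foxa2 were 21.3 CPM in D395A, 0.947 in KO and 0.106 in WT, and those of Dab2 were 17.4, 23.1 and 3.01. Gata4 was at 1.25 CPM in D395A, 1.98 in KO and 5.24 in WT, and Gata6 at 1.10, 0.745 and 2.42. Neural markers (6 of 8 tested) summed to 63.2 and 63.3 CPM in D395A, 56.4 and 56.3 CPM in KO, against 90.8 and 86.7 CPM in WT, with 4 higher and 2 lower in D395A, 0 higher and 2 lower in KO, and Fabp7 at 0 in KO and WT. Primitive streak markers (6 of 7 tested) summed to 6.13 and 5.52 CPM in D395A, 14.1 and 15.4 CPM in KO, against 25.9 and 22.3 CPM in WT, with 3 lower in D395A and 2 lower in KO. Trophoblast markers (6 of 7 tested) summed to 70.2 and 67.0 CPM in D395A, 48.2 and 46.5 CPM in KO, against 49.9 and 51.7 CPM in WT, with 4 higher in D395A, 1 higher in KO and Elf5 at 0 in D395A. Most of each trophoblast sum was Tfap2c, at 56.8 CPM in D395A, 41.5 in KO and 45.9 in WT. Fibroblast markers (5 of 8 tested) summed to 7.03 and 6.21 CPM in D395A, 12.3 and 12.0 CPM in KO, against 6.64 and 6.70 CPM in WT, with 3 higher and 2 lower in D395A and 2 higher and 1 lower in KO. Among these, Col3a1 held 12 and 23 counts in D395A, 0 and 0 in KO, against 0 and 0 in WT. Dcn held 38 and 34 counts in D395A, 0 and 7 in KO, against 0 and 0 in WT. Twist1 held 80 and 99 counts in D395A, 172 and 163 in KO, against 28 and 27 in WT. All of these were called higher in D395A. Called lower there were Col1a1 (18 and 48 counts, against 155 and 147 in WT) and Thy1 (8 and 9 counts, against 77 and 59 in WT). Lum was at 0 in KO and WT and Postn at 0 in KO, with 0 and 2 counts each in D395A. The calls given as 0 higher for stem cell and neural markers in edgeR were also 0 by DESeq2 and at an unadjusted p under 0.05. The part of these shifts in the values of the 10 genes was not tested.

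The mean profile of the 10 genes, as log2(CPM + 1) minus the WT mean, was -0.54 and -0.42 in D395A and -1.32 and -1.21 in KO. Single genes lay at root mean square distances between 0.37 (Spry2) and 2.37 (Etv4) from it, so the mean describes Spry2 best and Etv4 least. Over these 4 libraries and among 10523 other genes with a mean of at least 5 CPM, the closest profiles were those of Wars, Dguok, Sgsm2, B4galt6 and Trmt61a, at distances of 0.02 to 0.07. Wars, a tryptophan tRNA ligase, was at 76.2 CPM in D395A, 44.4 CPM in KO and 109 CPM in WT.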

How the data were processed

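RNA of 6 libraries was depleted of ribosomal RNA and sequenced as directional libraries, per the labels' protocols. Reads were processed with Trimmomatic 0.36, STAR 2.7 and HTSeq 0.11.2 on mm10, per the submitters' processing notes. For the counting step, strand setting and annotation are not named in the sources used here. The authors deposited raw counts per gene symbol, 1 table per library. The summary lines of HTSeq, 29.0% to 44.2% of each table's total, were left out.

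The test across genes used edgeR 4.0.16 (R 4.3.3), with its filterByExpr function, TMM scaling, a quasi-likelihood fit of all 6 libraries without covariates (3 residual degrees of freedom), and Benjamini-Hochberg adjustment over 15663 genes at 0.05. On simulated data the changed genes were nearly all recovered, but the share of false calls lay above the threshold set. Levels are mean ± SD of 2 libraries, and fold changes are log2 ± SE. The SE was derived from the quasi-likelihood test, as the size of the log2 fold change over the square root of its F statistic. Replicates differed by more than sampling noise (chi-square per degree of freedom 11.1 in D395A, 6.48 in KO, 3.19 in WT). Gene positions and exon lengths came from GENCODE M21 (GRCm38), with 97.71% of symbols matched to a single gene.

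The 10 genes and all lists were chosen with earlier results of these data known. Of each pathway list, at most the 3 genes with the lowest adjusted p among calls in a comparison with WT are named, and of the profile search the 5 closest genes. A gene of the cascade list that this rule names is not reported here. Genes named as at 0, Spry3 and the named endoderm, neural, trophoblast and fibroblast markers were picked after their values were seen. Alternatives were other scaling (DESeq2 size factors, library totals), no filter, DESeq2 1.42.0, only the groups compared, a replicate block, each library left out, and centring on the chromosome median.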

Additional observations from a re-analysis of the deposited data

Results flagged for a closer look

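Dusp4 differed between the mutant lines in direction as well as size. It was called higher in D395A and lower in KO, both against WT, and the difference of D395A over KO was 2.67 on the log2 scale (SE 0.21, adjusted p = 4.8e-07 in edgeR's quasi-likelihood test). Both D395A libraries stood above both WT libraries and both KO libraries below them. The difference lay between 2.49 and 2.86 when single libraries were left out.

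Reads that HTSeq assigned to no feature were used in no comparison. They made up 37.3% and 33.8% of the tables' totals in D395A replicates 1 and 2. In KO replicates 1 and 2 they made up 31.1% and 22.3%, against 30.2% and 30.2% in WT. Whether they lie outside genes cannot be told, since the strand setting and annotation of the counting are not named. Both D395A libraries stood above the WT libraries. The part of this share in the values of the 10 genes was not tested.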

How the results depend on the processing

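Over 360 refits of the 10 genes (30 fold changes under 12 settings), 353 kept their direction and their side of the threshold, 3 of values not called changed sign, 2 lost the call (Spry1 in KO without WT replicate 1, Dusp4 in KO without KO replicate 1) and 2 gained one (Spred2 in D395A without D395A replicate 2, Etv5 in D395A without D395A replicate 1). The changes of sign were in Dusp6 in D395A (without D395A replicate 2 and without WT replicate 2), which lay between -0.072 and 0.14 when single libraries were left out, and in Ier3 in D395A over KO (without KO replicate 2), which lay between -0.022 and 0.48. The cause was not tested. Genes called lower numbered 8 to 9 of 10 in KO and 4 to 5 of 10 in D395A when single libraries were left out, and those called higher in D395A 2 to 3. DESeq2, DESeq2 size factors, library totals, no filter and the fit of 2 groups alone left these counts at 9 lower in KO, 4 lower in D395A and 2 higher in D395A, and those of D395A over KO at 8 higher and 1 lower. Subtracting the chromosome median, a setting outside the 360 refits, turned the sign of no called value of the 10 genes. For the genes on chromosomes 8 and 11 it made the falls in KO smaller. Spred2 went from -0.48 to -0.07, Dusp4 from -0.72 to -0.24 and Etv4 from -1.72 to -1.30. No test was run on the centred values. Among values not called, centring turned the sign of those of Spred2 (0.38) and Dusp6 (-0.04) in D395A. With a replicate block 9 of the 10 genes were lower in KO, 4 lower and 2 higher in D395A, and over all genes 5192 genes were called higher and 5028 lower in KO, beside 5263 and 5105 without it. Whether libraries with the same replicate number share a batch is not given in the sources used here. Differences between replicates 1 and 2 correlated across genes at 0.06 between KO and WT and -0.01 between D395A and WT. Between D395A and KO they correlated at 0.17. Depth limits Spry4, Dusp6, Dusp4 and Ier3 most, with 25 to 58 counts in each KO library.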
